A study of Mus musculus with 6 samples.

Results

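Iron handling was followed through 10 genes in the mRNA of NK cells (natural killer cells, innate lymphocytes with cytotoxic granules) of the mouse, kept at low or ordinary oxygen. The genes were taken by name, out of 56953 in the files, for their roles in iron import (Tfrc, Slc11a2, Steap3), storage (Fth1, Ftl1), release from stores (Ncoa4), export (Slc40a1) and sensing (Ireb2, Aco1, Fbxl5). All 10 were found in the files and 9 passed the filter on low counts, while Slc40a1 did not. NK cells came from the spleen of wild-type C57BL/6 mice and were cultured for 7 days with recombinant human interleukin-2 at 1700 U/ml and 5% CO2, either at 20% oxygen (normoxia, 3 libraries) or at 1% oxygen (hypoxia, 3 libraries). The labels call the 3 libraries of a group biological replicates without saying whether they came from separate mice, so each p-value reflects only how far these libraries vary, which may be in part technical. No culture before the 7 days and no other oxygen level is among the samples, and iron in the medium was not measured in these files.

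Cells take up iron bound to transferrin through the transferrin receptor, reduce it in endosomes, carry it into the cytosol and store the surplus in ferritin, a shell of heavy and light subunits. When iron is short, the iron regulatory proteins bind a hairpin in certain mRNAs, the iron-responsive element (IRE). Binding ahead of the coding sequence blocks translation, as in the ferritins, and binding behind it protects the mRNA from decay, as in the transferrin receptor. Dividing lymphocytes depend on the transferrin receptor. Oxygen is part of this circuit, since 1 regulatory protein carries an iron-sulphur cluster that oxygen can damage and the ligase that removes the other senses iron and oxygen.

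The element is shown here because the regulatory proteins bind it, and its place groups the iron genes that carry it. Binding was not measured. In reference transcripts of GENCODE M21 the search was for C, 5 bases, the loop CAGTGN and 5 bases, on the sense strand, with the bases on both sides of the loop able to pair at all 5 positions (G with T counted as a pair). It matched 1.18% of 21773 protein-coding reference transcripts, 0.0919% ahead of and 0.487% behind the coding sequence. It matched 4 of the 10 iron genes and 2 of 9 other mRNAs reported to carry an IRE. A missing match thus does not mean that an mRNA cannot be bound. Each window of 27 bases is written 5′ to 3′, with capitals for the bulged C and the loop of 6 bases. The ferritin and ferroportin mRNAs carried it ahead of the coding sequence:
Fth1 transcript bases 88 to 114: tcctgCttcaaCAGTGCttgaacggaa
Ftl1 transcript bases 79 to 105: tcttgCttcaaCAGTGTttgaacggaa
Slc40a1 transcript bases 91 to 117: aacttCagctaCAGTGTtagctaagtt
Tfrc had 4 matches behind the coding sequence, and an element that departs from these letters would be missed:
Tfrc transcript bases 3316 to 3342: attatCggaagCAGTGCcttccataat
Tfrc transcript bases 3695 to 3721: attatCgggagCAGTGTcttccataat
Tfrc transcript bases 3760 to 3786: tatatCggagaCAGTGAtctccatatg
Tfrc transcript bases 3807 to 3833: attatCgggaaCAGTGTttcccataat

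The Fth1 and Ftl1 windows differed at 2 of 27 positions, C3T and C17T, counted from 1 at the 5′ end with the Fth1 base first. Slc11a2, for which an IRE has been described in some transcripts, had no match to these letters. The transcripts belong to an earlier build (GRCm38) than the authors' (GRCm39), so no genome coordinates are given.

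Hypoxia and normoxia differed little in size in these 9 genes, with log2 fold changes from -0.36 to 0.20. In the main fit, which did not use the replicate numbers, Steap3 alone passed the test, lower in hypoxia. In it 0 of 9 were higher (edgeR quasi-likelihood test, Benjamini-Hochberg adjusted p under 0.05 over 15591 genes). Of all tested genes 20.9% were called, 11.2% as higher and 9.72% as lower, and 1 of 9 is not above that background. At an unadjusted p under 0.05, 1 gene was higher (Ncoa4) and 1 lower (Steap3), and the DESeq2 Wald test and limma-voom each called 0 higher and 1 lower. The share of all tested genes at that unadjusted p is not given, here or below. It cannot be under the 20.9% called. The median log2 fold change was 0.09, against -0.0052 over all tested genes. Groups stood apart without overlap for 2 of the 9 (Steap3 and Ncoa4), 1 in each direction, as did 38.3% of all tested genes, 19.6% with hypoxia higher and 18.7% with hypoxia lower.

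Same-numbered libraries of both oxygen levels deviated together across genes, and a fit with the replicate number as a block (the replicate block) compared each hypoxia library with the normoxia library of its number. In that fit Slc11a2, Ftl1 and Ncoa4 were higher and Steap3 and Fth1 lower, 5 of 9, where 39.2% of all tested genes were called, 19.2% as higher and 20% as lower. In 8 of the 9 genes all 3 numbered pairs went the same way, 6 up and 2 down, and this held for 63.4% of all tested genes.

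**Figure D1:**
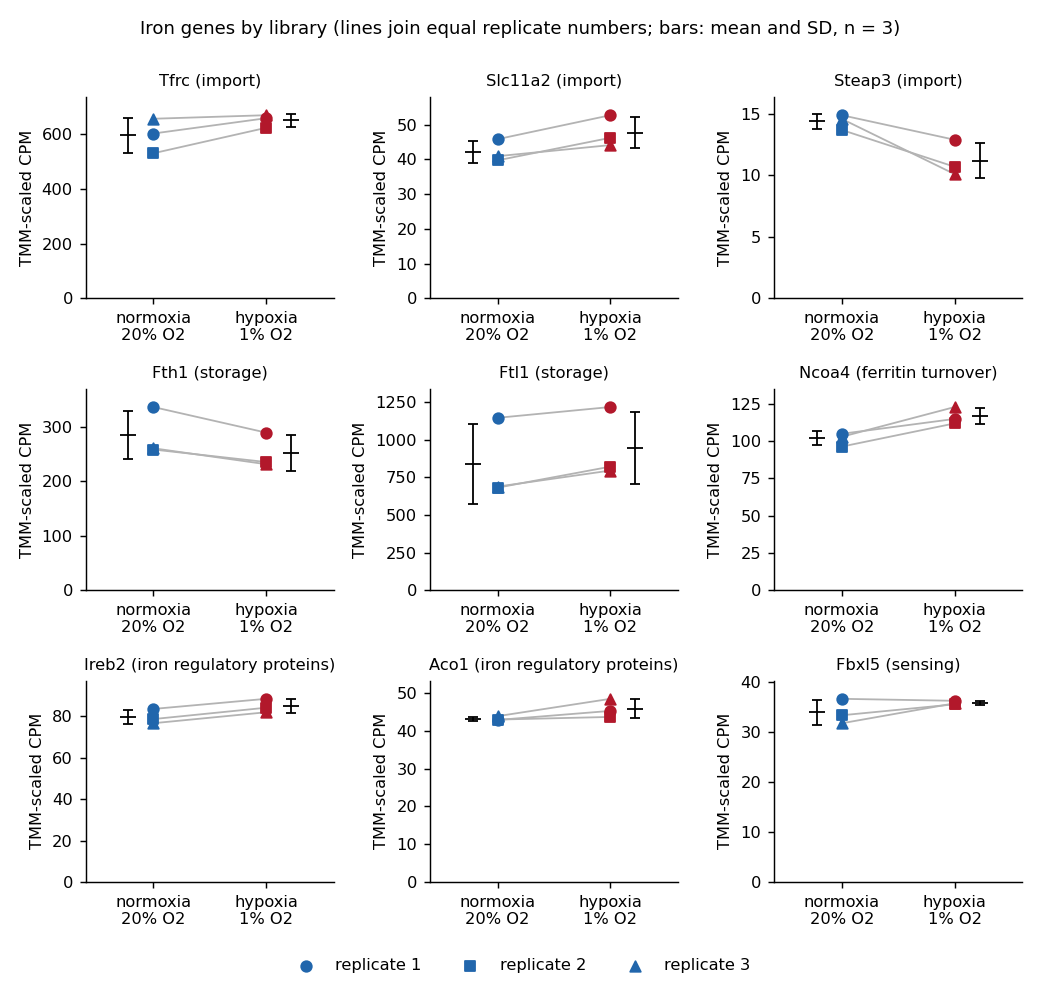
Levels of the 9 tested iron genes in each library (y axis, CPM, the count relative to library size scaled with TMM, starting at 0), with normoxia in blue and hypoxia in red, a marker shape per replicate number, grey lines joining equal numbers and bars for mean and SD (n = 3). Steap3 lies between 10.1 and 12.9 in hypoxia, below the 13.7 to 14.9 of normoxia, and the replicate 1 libraries of both groups are highest for Ftl1.

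Libraries held 55104810 to 55794698 estimated counts. Both replicate 1 libraries stood apart from the other 4 for the ferritin genes. The cells expressed their defining genes: summed over 10 NK markers, the level was 14702 to 17506 CPM in hypoxia and 15678 to 16903 in normoxia. Most of that sum was Gzmb (means of 11744 and 11992 CPM). Of the 10 markers 0 rose and 2, Eomes and Klre1, fell (20%, against 20.9% of all tested genes). Groups did not overlap for 5 of the 10 with hypoxia lower, among them Ncr1 and Prf1, and for 1 with hypoxia higher. Of all tested genes 18.7% stood apart with hypoxia lower and 19.6% with hypoxia higher. With the replicate block 5 NK markers were lower and 2 higher, where 39.2% of all tested genes were called. Of 12 macrophage markers 2 passed the filter, 10 were under 1 CPM in all libraries and C1qa, Marco and Cd5l had no counts, but their sum was 49.4 to 81.8 CPM in hypoxia and 12.3 to 24.8 in normoxia, through Cd68, a lysosomal protein gene, which rose. Erythroid markers summed to 1.01 to 1.16 CPM in hypoxia and 1.28 to 1.47 in normoxia. Neutrophil markers summed to 1.65 to 3.03 and 0.127 to 0.343 CPM and B cell markers to 1.12 to 1.25 and 0.347 to 0.706 CPM. All 3 tested neutrophil markers and the 1 tested B cell marker rose, and the 1 tested erythroid marker fell, where 20.9% of all tested genes were called. The 10 neutrophil markers were all under 1 CPM in all libraries. Of the 10 T cell markers Cd3d, Cd3g and Cd4 rose and 0 fell (30%, against 20.9% of all tested genes). The T cell markers summed to 537 to 616 CPM in hypoxia and 571 to 582 in normoxia. With the replicate block 4 of them were higher and 2 lower, where 19.2% of all tested genes were called as higher and 20% as lower. The 2 lower were the T cell receptor genes Trbc1 (-0.18, edgeR adjusted p = 0.010, and 0.14 without the block) and Trbc2 (-0.23, edgeR adjusted p = 0.0083, and 0.066 without the block). The part of other cells in the iron genes was not tested. In bulk RNA, a change in the number of cells that carry an mRNA and a change in its amount per cell cannot be told apart.

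Set per kb of reference transcript, so that genes can be compared, light ferritin was the most abundant of the 10. Ftl1 stood at 977 ± 245 CPM per kb in hypoxia and 867 ± 276 in normoxia (SD, n = 3 here and below), above 99.4% of tested genes. Fth1 followed at 271 ± 35.1 and 307 ± 47.9 CPM per kb, and Tfrc at 133 ± 4.87 and 122 ± 12.9. Ncoa4 came next at 28.7 ± 1.33 and 25 ± 1.13 CPM per kb. Slc11a2 (15.8 ± 1.49 and 13.9 ± 1.08) and Ireb2 (14.7 ± 0.572 and 13.8 ± 0.615) overlapped in CPM per kb in both groups. So did Fbxl5 (12.6 ± 0.136 and 11.9 ± 0.881) and Aco1 (12 ± 0.64 and 11.3 ± 0.146). Steap3 was lowest of the 9, at 2.18 ± 0.279 and 2.8 ± 0.123 CPM per kb. The order of the 9 means was the same in hypoxia and normoxia.

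**Figure D2:**
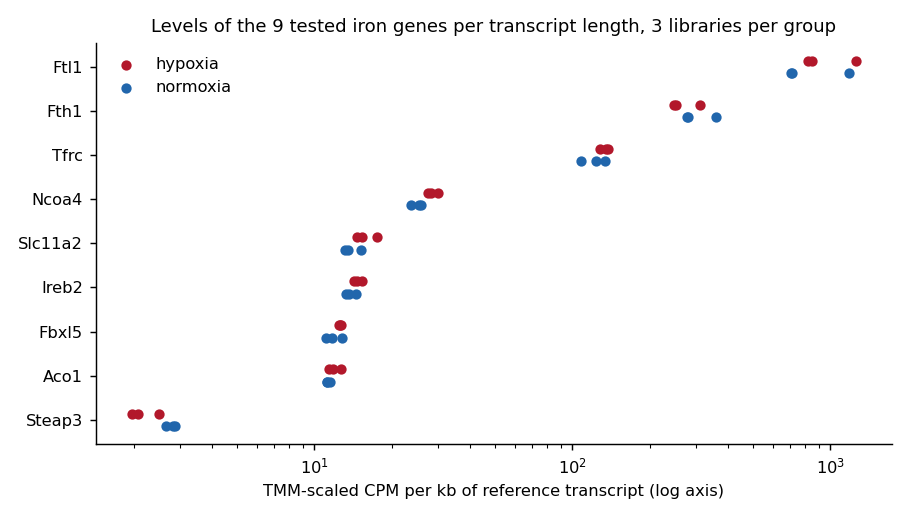
Levels of the 9 tested iron genes per kb of reference transcript (x axis, TMM-scaled CPM per kb, log axis), with 3 hypoxia libraries in red and 3 normoxia libraries in blue for each gene. Mean levels run from 2.18 for Steap3 to 977 for Ftl1 in hypoxia, and the red and blue points lie close together within each gene.

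Of the import genes, Steap3 fell and the others did not pass the test without the replicate block. Steap3 encodes a ferrireductase that reduces iron in the endosome so that it can be carried out. Its levels were 12.9, 10.7 and 10.1 CPM in hypoxia replicates 1, 2 and 3 and 14.9, 13.7 and 14.6 CPM in normoxia replicates 1, 2 and 3. All 3 hypoxia libraries lay below all 3 normoxia libraries. Its log2 fold change was -0.36 (SE 0.11, 95% interval -0.60 to -0.13, edgeR adjusted p = 0.037), and the numbered pairs differed by -0.22, -0.36 and -0.53 on the log2 scale. The replicate block gave the same direction (edgeR adjusted p = 0.0033), and without both replicate 1 libraries the log2 fold change was -0.44 (edgeR adjusted p = 0.014). The call was lost without hypoxia replicates 2 or 3 (edgeR adjusted p = 0.15 and 0.13), without normoxia replicates 1, 2 or 3 (0.062, 0.071 and 0.082), and with scaling by library size alone (0.096), each time with a negative log2 fold change.

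Tfrc encodes the transferrin receptor, the main entry route for iron. Its mRNA stood at 658, 623 and 669 CPM in hypoxia and 602, 529.8 and 656 CPM in normoxia, in replicate order. The groups overlapped, since normoxia replicate 3 was above hypoxia replicate 2. The log2 fold change was 0.12 (SE 0.09, edgeR adjusted p = 0.38 unpaired, 0.083 in the replicate block), with a 95% interval of -0.08 to 0.33. Each hypoxia library was above the normoxia library of its number, by 0.13, 0.23 and 0.03 on the log2 scale. Proliferation genes, given beside Tfrc because dividing cells need iron, were not called: of 16 tested, 0 were higher and 0 lower by edgeR, DESeq2 or limma-voom, and 1 was lower at an unadjusted p under 0.05. With the replicate block 2 of them were lower and 0 higher, where 39.2% of all tested genes were called, against 20.9% without the block. Mki67, a marker of cycling cells, stood at 610.4 ± 67.9 CPM in hypoxia and 649 ± 114 in normoxia, and Myc, a growth regulator, at 114 ± 11.7 and 121 ± 13.1 CPM.

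Slc11a2 encodes DMT1, which carries ferrous iron across membranes. It stood at 52.7, 46.2 and 44.1 CPM in hypoxia and 45.8, 39.7 and 40.9 CPM in normoxia. Every pair was higher in hypoxia, but hypoxia replicate 3 lay below normoxia replicate 1, so the groups overlapped. The log2 fold change was 0.18 (SE 0.09, 95% interval -0.02 to 0.38, edgeR adjusted p = 0.20), and it passed with the replicate block (0.18, SE 0.05, edgeR adjusted p = 0.015). The gene-level counts do not separate its transcripts with and without an IRE.

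The heavy and light ferritin mRNAs went in opposite directions within every numbered pair, by small amounts. Fth1, the heavy subunit that oxidises iron for storage, stood at 289, 235 and 231 CPM in hypoxia and 336, 258 and 260.3 CPM in normoxia. Ftl1, the light subunit that helps form the iron core, stood at 1219, 822 and 796 CPM in hypoxia and 1147, 682 and 689 CPM in normoxia. For both genes the replicate 1 libraries were the highest of their group, and the groups overlapped. Fth1 had a log2 fold change of -0.18 (SE 0.13, 95% interval -0.46 to 0.10, edgeR adjusted p = 0.36) and Ftl1 of 0.17 (SE 0.22, 95% interval -0.32 to 0.66, edgeR adjusted p = 0.64). By pair, Fth1 differed by -0.22, -0.13 and -0.17 and Ftl1 by 0.09, 0.27 and 0.21 on the log2 scale. With the replicate block Fth1 was lower (-0.17, SE 0.05, edgeR adjusted p = 0.015) and Ftl1 higher (0.19, SE 0.05, edgeR adjusted p = 0.017). Without both replicate 1 libraries Ftl1 had a log2 fold change of 0.24 and passed (edgeR adjusted p = 0.049), and Fth1 of -0.15 and did not pass (0.15). Without hypoxia replicate 1 alone, the direction of Ftl1 turned (-0.05, edgeR adjusted p = 0.91). With single libraries left out, the log2 fold change of Fth1 ran from -0.29 (without hypoxia replicate 1) to -0.04 (without normoxia replicate 1, edgeR adjusted p = 0.81).

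The ratio of Fth1 to Ftl1 within a library does not depend on how libraries are scaled to each other. Per kb of transcript it was 0.247, 0.298 and 0.302 in hypoxia and 0.305, 0.395 and 0.394 in normoxia. All hypoxia ratios lay below all normoxia ratios, although hypoxia replicate 3 and normoxia replicate 1 nearly met. The log2 ratio was lower in hypoxia by 0.36 in the mean, and its SD was 0.16 in hypoxia and 0.21 in normoxia (log2 difference -0.36, exact two-sided permutation p = 0.1, the smallest that 3 against 3 can give, and 0.4 adjusted over 4 ratios). The numbered pairs differed by -0.30, -0.40 and -0.38 (exact sign-flip p = 0.25, the smallest that 3 pairs can give). Ferritin pseudogenes bearing a ferritin name held at most 0.132% of the Ftl1 count and 0.00736% of the Fth1 count of any library, and summing them in left the difference at -0.36.

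The Tfrc to Fth1 ratio per kb was 0.432, 0.503 and 0.55 in hypoxia and 0.34, 0.39 and 0.479 in normoxia. Each hypoxia ratio was above that of its pair, by 0.34, 0.37 and 0.20 on the log2 scale, but the groups overlapped (log2 difference 0.30, exact permutation p = 0.2). That difference was 0.19 without normoxia replicate 1 and 0.44 without normoxia replicate 3. Tfrc to Ftl1 had a log2 difference of -0.06 (exact permutation p = 0.9), with pairs at 0.04, -0.04 and -0.18.

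**Figure D3:**
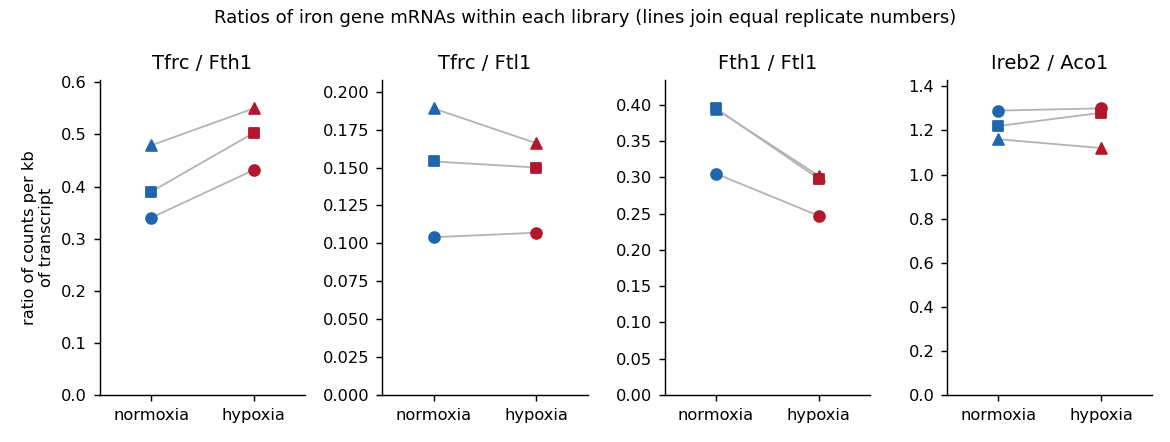
Ratios of iron gene mRNAs within each library (y axis, ratio of counts per kb of transcript, starting at 0), with normoxia in blue, hypoxia in red and grey lines joining equal replicate numbers. Fth1 to Ftl1 is 0.305 to 0.395 in normoxia and 0.247 to 0.302 in hypoxia, while Ireb2 to Aco1 overlaps.

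Ncoa4 encodes the receptor that delivers ferritin to lysosomes, where its iron is released. It stood at 115, 112 and 123 CPM in hypoxia and 105, 96.4 and 103 CPM in normoxia. Hypoxia was higher in all 3 pairs (0.13, 0.22 and 0.25) and the groups did not overlap. The log2 fold change of 0.20 (SE 0.07, 95% interval 0.04 to 0.36) missed the threshold (edgeR adjusted p = 0.075). It passed in the replicate block (edgeR adjusted p = 0.0060), when libraries were scaled by size alone (0.28, edgeR adjusted p = 0.012) and under a stricter filter (0.22, edgeR adjusted p = 0.047).

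Slc40a1 encodes ferroportin, the known cellular iron exporter. It had 1 count in hypoxia replicate 1, 1 in normoxia replicate 3 and 0 in the other 4 libraries. At this depth 3 counts, the limit that a count of 0 allows, correspond to 0.052 to 0.0571 CPM per library (counting error only). Ferroportin mRNA was thus at or under that floor in both groups, and no fold change is given.

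The sensors of the circuit differed little. Ireb2, the gene of iron regulatory protein 2, which is controlled by degradation, stood at 88.5, 84.2 and 82 CPM in hypoxia and 83.6, 78.7 and 76.7 CPM in normoxia. All pairs were higher in hypoxia, by 0.08, 0.10 and 0.10, and the groups overlapped (log2 fold change 0.09, SE 0.07, 95% interval -0.06 to 0.25, edgeR adjusted p = 0.40). Aco1, the gene of iron regulatory protein 1, which is a cytosolic aconitase when it holds its cluster, stood at 45.3, 43.7 and 48.5 CPM in hypoxia and 42.9, 43 and 43.9 CPM in normoxia. Its log2 fold change was 0.08 (95% interval -0.07 to 0.24, edgeR adjusted p = 0.44). The Ireb2 to Aco1 ratio per kb ran from 1.12 to 1.3 in hypoxia and from 1.16 to 1.29 in normoxia (log2 difference 0.01, exact permutation p = 0.9). Fbxl5, the iron-sensing ligase subunit that marks iron regulatory protein 2 for destruction, stood at 36.3, 35.6 and 35.8 CPM in hypoxia and 36.7, 33.4 and 31.8 CPM in normoxia. Its log2 fold change was 0.08 (95% interval -0.09 to 0.25, edgeR adjusted p = 0.51), and normoxia replicate 1 was above all hypoxia libraries. None of these 3 passed with the replicate block (edgeR adjusted p = 0.13 for Ireb2, 0.21 for Aco1 and 0.26 for Fbxl5). The upper bounds of the 95% intervals leave room for a rise of at most 0.25 on the log2 scale in each of the 3.

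**Figure D4:**
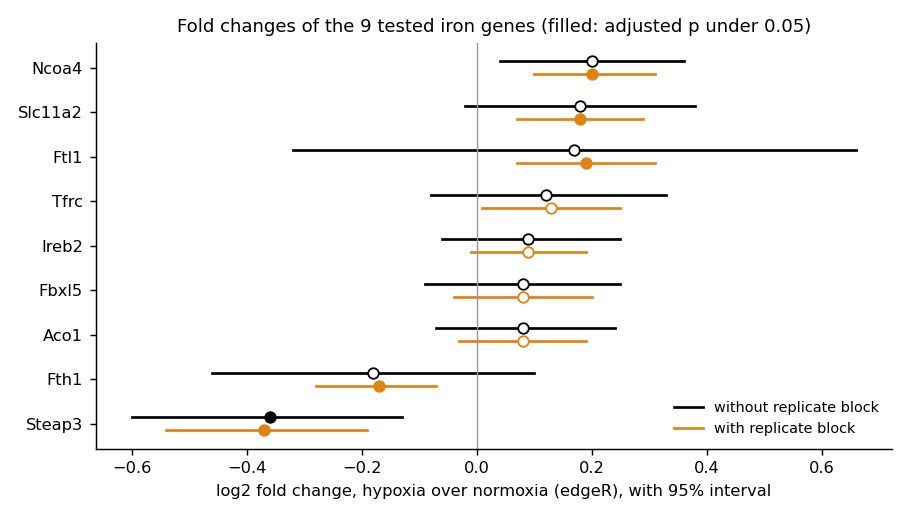
Log2 fold change of the 9 tested iron genes, hypoxia over normoxia (x axis), with 95% intervals from edgeR without (black) and with (orange) the replicate block, filled where the adjusted p is under 0.05. Without the block only Steap3 (-0.36) is filled, and with it Steap3, Fth1, Ftl1, Slc11a2 and Ncoa4 are, at nearly the same fold changes and with shorter intervals.

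The cultures differed in known targets of the hypoxia-inducible factor, whose values are given for scale. Of 10 such genes 4 rose and 0 fell (edgeR, 40%, where 20.9% of all tested genes were called). Their median log2 fold change was 0.29. Among the 4 were P4ha1, a collagen prolyl hydroxylase subunit gene (log2 fold change 1.08, SE 0.08), and Egln3, an oxygen sensor gene (1.42, SE 0.16). The 6 not called ran from 0.15 (Car9) to 0.30 (Slc2a1). The count that rose was 9 with the replicate block, where 39.2% of all tested genes were called. It was 8 without normoxia replicate 1, where 1980 genes over all were called as higher, against 1745 in the main fit. At an unadjusted p under 0.05, 0 of the 10 were lower by edgeR, DESeq2 or limma-voom. Tfrc, itself known as a target of this factor, had the 95% interval of -0.08 to 0.33 given above.

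Of 31 other iron transport genes, 15 were tested, of which 3 rose, 3 fell and 9 were not called. These calls make 40% of the 15, where 20.9% of all tested genes were called, and the difference between the shares was not tested. With the replicate block 4 were higher and 4 lower, where 39.2% of all tested genes were called. The median over the 15 was -0.02 on the log2 scale. Tmprss6, the gene of a membrane protease known in liver for restraining the iron hormone hepcidin, rose from 20.8 ± 2.93 to 40.7 ± 3.08 CPM (0.97, SE 0.11, edgeR adjusted p = 0.00031). Its levels were 43.9, 37.8 and 40.3 CPM in hypoxia and 21.1, 23.5 and 17.7 CPM in normoxia, without overlap. Trf, the transferrin gene, rose from 78.9 ± 4.44 to 108 ± 3.23 CPM (0.46, SE 0.07, edgeR adjusted p = 0.0018), and all hypoxia libraries were above all normoxia libraries. Slc22a17, the gene of a lipocalin receptor, rose from 0.877 ± 0.291 to 1.75 ± 0.447 CPM (edgeR adjusted p = 0.032).

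Flvcr1, the gene of a membrane transporter described as a haem exporter, fell from 11.9 ± 1.19 to 7.52 ± 0.638 CPM (-0.66, SE 0.11, edgeR adjusted p = 0.0027), again without overlap. Slc25a37, which encodes mitoferrin 1 for iron entry into mitochondria, fell from 43.4 ± 5.19 to 33.3 ± 3.91 CPM (-0.38, SE 0.11, edgeR adjusted p = 0.035). Its relative Slc25a28, mitoferrin 2, stood at 30.5 ± 3.06 and 32 ± 1.93 CPM in hypoxia and normoxia (edgeR adjusted p = 0.65). Slc39a8, a zinc and iron importer gene, fell to 5.64 ± 0.177 from 7.13 ± 0.423 CPM (-0.34, edgeR adjusted p = 0.048). The call of Slc39a8 was lost without any single library (edgeR adjusted p = 0.079 to 0.14). Slc39a8 also missed the threshold with the stricter filter (0.053) and without a filter (0.097). The call of Slc25a37 was lost without hypoxia replicates 2 or 3 or normoxia replicate 2 (0.073, 0.11 and 0.13), and Slc39a8 and Slc25a37 both missed the threshold when libraries were scaled by size alone (0.12 and 0.11). That of Slc22a17 was lost without hypoxia replicate 1 (0.10) or 2 (0.079), without normoxia replicate 1 (0.061) or 3 (0.094) and without both replicate 1 libraries (0.15). The most abundant of the list per kb, the iron chaperone genes Pcbp2 and Pcbp1, were not called (edgeR adjusted p = 0.21 and 0.48), though Pcbp2 was lower with the replicate block (0.023).

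Haem takes much of the iron a cell uses. Of 18 tested genes of its synthesis and breakdown, 0 rose and 2 fell, with a median of -0.06. These calls make 11.1% of the 18, where 20.9% of all tested genes were called. With the replicate block 5 fell and 1 rose, where 20% of all tested genes were called as lower and 19.2% as higher. At an unadjusted p under 0.05, 1 was higher and 5 lower, and DESeq2 and limma-voom also called 0 higher and 2 lower. The unadjusted counts have no share of all tested genes beside them, and that share cannot be under 20.9%. Cpox, the coproporphyrinogen oxidase gene, whose enzyme uses oxygen, fell from 60.9 ± 3.22 to 44.6 ± 1.59 CPM (-0.45, SE 0.07, edgeR adjusted p = 0.0020), with 46.4, 43.7 and 43.6 CPM in hypoxia and 63.6, 57.3 and 61.8 CPM in normoxia. Alad, an earlier enzyme of the pathway, fell from 45.7 ± 1.88 to 37.4 ± 1.94 CPM (-0.29, SE 0.07, edgeR adjusted p = 0.020). Its call was lost without hypoxia replicates 1 or 2 or normoxia replicate 3 (edgeR adjusted p = 0.077, 0.10 and 0.053), without both replicate 1 libraries (0.053) and under library size scaling (0.066). Hmox1, the inducible haem oxygenase gene, had 10.9 ± 1.16 CPM in hypoxia against 11.1 ± 1.53 in normoxia (95% interval -0.30 to 0.24). The most abundant of the list per kb, Tmem14c and Pgrmc1, were not called (edgeR adjusted p = 0.61 and 0.85).

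Of 31 iron-sulphur cluster genes, all tested, 2 rose and 3 fell, with a median of -0.09. These calls make 16.1% of the 31, where 20.9% of all tested genes were called. With the replicate block 10 fell and 3 rose, where 20% of all tested genes were called as lower and 19.2% as higher. The difference between the shares was not tested. Cisd2 and Cisd1, which encode cluster-bearing proteins of the endoplasmic reticulum and of the outer mitochondrial membrane, rose. Cisd2 went from 40.6 ± 1.25 to 54.4 ± 3.86 CPM (0.42, SE 0.08, edgeR adjusted p = 0.0037) and Cisd1 from 32.7 ± 2.29 to 39.5 ± 2.8 CPM (0.27, SE 0.08, edgeR adjusted p = 0.047). Fdxr, which passes electrons to cluster assembly, fell from 21.4 ± 1.38 to 17.4 ± 0.938 CPM. Ciao2b, of the cytosolic delivery complex, fell from 33 ± 1.17 to 28 ± 0.227 CPM, and Iba57, of mitochondrial assembly, from 9.6 ± 0.502 to 7.48 ± 0.73 CPM (edgeR adjusted p = 0.031, 0.036 and 0.039 for the 3). Only the call of Cisd2 held without each single library in turn (edgeR adjusted p = 0.0045 to 0.024). That of Ciao2b was lost without any of the 6 libraries (0.061 to 0.17), and Cisd1 kept it only without normoxia replicate 3 (0.034). Cisd1 also missed the threshold with DESeq2 size factors and without a filter (0.054 and 0.058), and Ciao2b without a filter (0.071). Fdxr and Iba57 kept it only without normoxia replicate 1 (0.019 and 0.032), and the calls of Fdxr, Ciao2b and Iba57 were lost with scaling by library size (0.11, 0.14 and 0.12). The abundant Hspa9 and Ciao2a were not called (0.19 and 0.13) but were lower with the replicate block (0.025 and 0.017).

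Of 9 other mRNAs reported to carry an IRE, 8 were tested, 2 rose and 1 fell. These calls make 37.5% of the 8, where 20.9% of all tested genes were called, and the difference was not tested. With the replicate block 4 were higher and 2 lower, where 39.2% of all tested genes were called. App, the amyloid precursor gene, rose from 3.27 ± 0.397 to 11.8 ± 0.754 CPM (1.85, SE 0.12, edgeR adjusted p = 1.7e-05). Cdc42bpa, the gene of an actin-regulating kinase, rose from 10 ± 0.327 to 21.8 ± 1.38 CPM (1.12, SE 0.08, edgeR adjusted p = 3e-05). Epas1, the gene of HIF-2 alpha, fell from 9.04 ± 1.97 to 5.14 ± 0.87 CPM (-0.81, SE 0.18, edgeR adjusted p = 0.010). Reference transcripts of these 3 held no match to the motif printed above for the ferritins and Tfrc. Cdc14a, the gene of a phosphatase and abundant per kb within the list, was not called (edgeR adjusted p = 0.24).

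The last list holds partners of the Fbxl5 ligase and RNA-binding proteins of the families known to act on the Tfrc mRNA. Of 10 tested, 0 rose and 2 fell (edgeR, DESeq2 and limma-voom, with 0 higher at an unadjusted p under 0.05). By edgeR these calls make 20% of the 10, where 20.9% of all tested genes were called. With the replicate block 2 were higher and 2 lower, where 39.2% of all tested genes were called. Zfp36l2, a binder of AU-rich mRNA, fell from 394 ± 33.9 to 309.7 ± 11 CPM (-0.35, SE 0.08, edgeR adjusted p = 0.016). Zc3h12a, the gene of Regnase-1, a nuclease that cleaves stem-loops in mRNAs including that of Tfrc, fell from 23.5 ± 2.38 to 18.1 ± 2.44 CPM (-0.37, SE 0.11, edgeR adjusted p = 0.045). Zfp36l2 lost its call without hypoxia replicate 2 (0.092). Zc3h12a lost its call without hypoxia replicate 1 (0.14) or 3 (0.12), without normoxia replicate 2 (0.14) or 3 (0.12), under library size scaling (0.14) and under the stricter filter (0.056). Skp1a, an adaptor of the ligase, had 130.1 ± 8.47 CPM in hypoxia against 114 ± 10.5 in normoxia (edgeR adjusted p = 0.17, 0.012 with the replicate block).

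**Figure D5:**
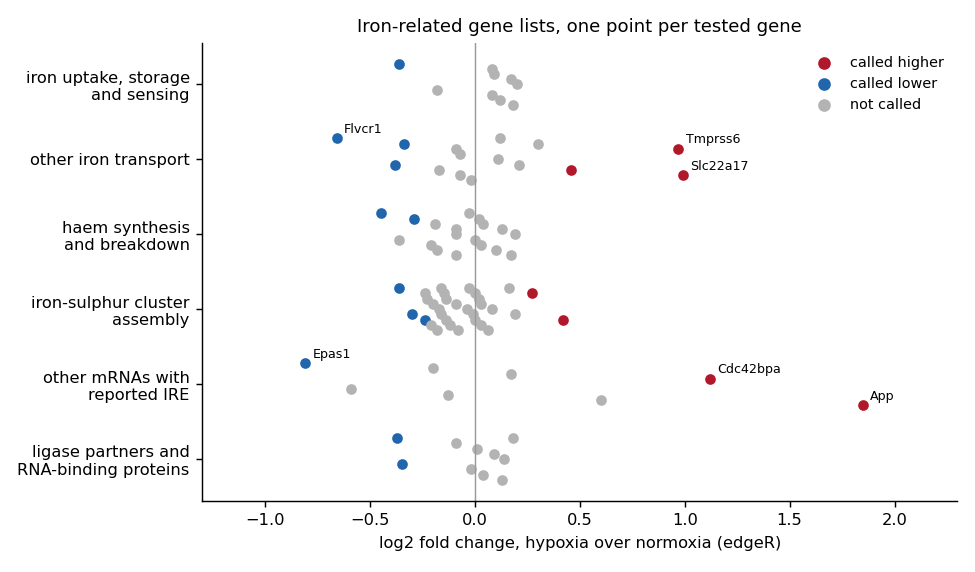
Log2 fold change of each tested gene, hypoxia over normoxia (x axis), by list, with genes called higher in red, called lower in blue and not called in grey. The iron uptake, storage and sensing genes lie between -0.36 and 0.20, while App (1.85), Cdc42bpa (1.12), Slc22a17 (0.99) and Tmprss6 (0.97) of the other lists lie farther out.

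Across the 6 libraries the log2 levels most like those of Tfrc, among 9497 named genes of at least 5 CPM, were those of Prkar2a, Pccb and Api5 (Pearson r = 0.981, 0.978 and 0.973). Those most like Fth1 were Tmem62, Cdipt and Rpl14-ps1 (r = 0.998, 0.998 and 0.997). These values describe 6 libraries that share culture, scaling and replicate number. None of the 6 genes was called (edgeR adjusted p = 0.21 to 0.68), and 324 genes correlated with Fth1 above 0.9, against 52 with Tfrc.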

How the data were processed

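The 6 mRNA libraries were strand-specific, per the labels' protocols. The authors deposited estimated counts per Ensembl gene, not normalized. Per the submitters' processing notes, Trim Galore 0.6.4, kallisto 0.4.6 and edgeR 3.17 were used with build GRCm39. Settings and annotation were not given in the sources used here. Deposited log2 CPM tables were not used. Estimated counts divide reads among similar transcripts by likelihood, which bears on ferritin genes and their pseudogenes.

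Counts were rounded, filtered with filterByExpr (minimum count 10, minimum total 15, leaving 15591 genes), scaled with TMM and tested with the quasi-likelihood test of edgeR 4.0.16 with no covariate. P-values were Benjamini-Hochberg adjusted over all genes (threshold 0.05). The fit was tested on simulated data. DESeq2 1.42.0 and limma 3.58.1 gave alternatives. An SE is the size of the log2 fold change divided by the root of F. Symbols, transcripts and lengths came from GENCODE M21. Older symbols were matched through a RefSeq table, and Ahsp of the erythroid markers was not matched. Reference transcripts were chosen as APPRIS principal first, then RefSeq-matched, then the longest.

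Same-numbered libraries correlated in their deviations from group means (0.47, 0.33 and 0.30). By a criterion of 0.1 for every pair, with the numbers given in the labels, they were taken as pairs in the replicate block. Of libraries of unlike number, hypoxia replicate 2 and normoxia replicate 3 also passed 0.1 (0.12), and the others ran from -0.35 to -0.01. The main fit did not use this pairing. Variation between replicates (the biological coefficient of variation of edgeR) was 10.9% without the block and 5.64% with it. Replicates of a group were not the same library, with a chi-square per gene of 12.4 to 59.2 between them.

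The members and lists were chosen with earlier results of these data known. Named are all members, up to 3 called genes per list and direction by p, the 2 most abundant per kb of each list, Hmox1, Slc25a37, Slc25a28, Epas1, Mki67 and Myc, and the 3 genes most like Tfrc and Fth1. Marker genes and hypoxia targets that are named were chosen after their values were seen. One gene that this rule names is not reported here.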

Additional observations from a re-analysis of the deposited data

How the results depend on the processing

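Of 135 values of the 9 tested iron genes under 15 other settings, 121 kept direction and side of the threshold, and the cause of the changes was not tested. The main fit left 8 of the 9 uncalled, so most of the 121 are genes that stayed uncalled. Steap3, the 1 gene called, lost its call in 6 of the 15 settings. Of the other genes 7 values passed the threshold and 1 turned direction. With the replicate block, 3 of these genes were higher and 2 lower, the calls over all genes were 2988 higher and 3120 lower, those of haem genes 1 and 5, of iron-sulphur genes 10 lower, of other IRE mRNAs 4 and 2, of ligase partners and RNA-binding proteins 2 higher, of proliferation genes 2 lower and of hypoxia targets 9 higher. Scaling by library size gave 2384 higher and 998 lower over all genes (70.5% of calls higher in place of 53.5%), 1 iron gene higher and 0 lower, and 1 lower among transport genes. It gave 1 higher and 1 lower among haem genes, 0 lower among iron-sulphur genes, 4 higher among IRE mRNAs, 1 lower among RNA-binding proteins and 8 higher among hypoxia targets. The stricter filter (minimum count 50) gave 1 iron gene higher and 1 RNA-binding protein gene lower, beside 1513 higher and 1324 lower over all genes. The main fit had 1745 higher and 1516 lower over all genes. Without a filter 6 transport genes were higher and 1 iron-sulphur gene higher, beside 1911 higher and 1731 lower over all genes. That setting also tests genes near 0 counts, which the main fit left out, so its counts are not of the same genes. DESeq2 size factors gave 1 iron-sulphur gene higher, beside 1728 higher and 1557 lower over all genes. Without both replicate 1 libraries 1 iron gene was higher, 1 haem gene lower, and 1 iron-sulphur gene higher and 1 lower. In that setting 1 proliferation gene was lower and 8 hypoxia targets higher, beside 1811 higher and 1481 lower over all genes.

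With each library left out in turn, calls ran from 1146 to 1980 higher and 804 to 1636 lower over all genes, with the fewest higher without normoxia replicate 2 (1146 and 942 lower) and the fewest lower without hypoxia replicate 2 (1160 and 804). The iron genes had 0 to 1 lower, transport genes 1 to 2 lower, haem genes 1 to 3 lower, iron-sulphur genes 1 to 2 higher and 0 to 2 lower, RNA-binding proteins 1 to 2 lower, proliferation genes 0 to 1 lower and hypoxia targets 4 to 8 higher. The Tfrc to Ftl1 ratio had log2 differences of -0.30 to 0.13, that of Ireb2 to Aco1 -0.03 to 0.08, and both turned direction, while Fth1 to Ftl1 stayed at -0.49 to -0.27 and Tfrc to Fth1 at 0.19 to 0.44. The log2 fold change of Ftl1 ran from -0.05 (without hypoxia replicate 1) to 0.46. Values near 0 that turned were those of Tmem14c (-0.18 to 0.01), Pgrmc1 (-0.03 to 0.07, with -0.0038 without hypoxia replicate 3), Slc25a28 (-0.11 to 0.01, and 0.01 with library size scaling), Mki67 (-0.23 to 0.01) and Hmox1 (-0.10 to 0.09, with 0.05 without hypoxia replicate 3, and 0.06 with library size scaling and 0.02 without both replicate 1 libraries).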
